A study of Mus musculus with 6 samples.

Results

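Heparan sulfate is a sugar chain carried by proteins of the cell surface and the extracellular matrix, and 10 mouse genes for enzymes that build, sulfate, trim or cleave it are described here in melanocyte stem cells of K14-SCF Tg and WT mice. The genes are the heparanase gene Hpse and its relative Hpse2, the polymerase genes Ext1 and Ext2, the sulfotransferase genes Ndst1, Ndst2, Hs2st1 and Hs6st1, and the sulfatase genes Sulf1 and Sulf2. They are 10 of the 21368 genes that could be named on the array, through the RefSeq accession that the files give for each probe, and they have 14 probes. Hpse was chosen by its measured level, which differed between the 2 genotypes on these same arrays, so its values are a description and carry no test. The other 9 were taken for their place in the pathway and were tested.

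The series compares melanocyte stem cells, the reserve from which the pigment cells of the hair follicle are renewed, in 3 samples of K14-SCF Tg mice and 3 samples of WT mice. In the transgenic animals SCF, or stem cell factor, which binds KIT on melanocytes, is made under the keratin 14 promoter in basal keratinocytes. Both genotypes were male, and both were sorted from skin by green fluorescence and low side scatter, so both carry a green reporter. Its driver, the animals' age and any pooling are not stated in the labels. The labels number the samples without saying that each came from its own animal, so the p-values rest on the spread among these 6 samples alone and part of that spread may be technical.

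Heparan sulfate is polymerised in the Golgi by a complex of EXT1 and EXT2 on a core protein such as a syndecan, glypican or perlecan. N-deacetylase/N-sulfotransferases then open the chain to sulfation, and 2-O-, 6-O- and 3-O-sulfotransferases add further sulfates, which make the docking sites for growth factors such as FGFs and for matrix proteins. After the chain has reached the surface, the sulfatases SULF1 and SULF2 take 6-O-sulfates off again, and heparanase, the only mammalian enzyme known to cut the chain inside itself, releases fragments together with whatever is bound to them. In skin these chains line the basement membrane on which melanocytes and keratinocytes sit. In melanoma, heparanase is known for its part in invasion.

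The upstream DNA of the 2 heparanase genes is shown because Hpse is the gene with the large difference and Hpse2 its nearest relative. The stretches are the 250 bases before each gene's start, on the gene's own strand and both on the minus strand of the chromosome, in RefSeq's table for build GRCm38.p6. Hpse spans chr5:100719717-100719966 and Hpse2 chr19:43388356-43388605. Capitals mark the GC box GGGCGG, the letters that Sp1 binds.
Hpse: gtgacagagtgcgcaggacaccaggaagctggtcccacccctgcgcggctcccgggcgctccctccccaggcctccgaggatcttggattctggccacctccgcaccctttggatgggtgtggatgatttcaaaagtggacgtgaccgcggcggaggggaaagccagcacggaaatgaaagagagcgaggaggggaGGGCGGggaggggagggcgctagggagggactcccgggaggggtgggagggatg
Hpse2: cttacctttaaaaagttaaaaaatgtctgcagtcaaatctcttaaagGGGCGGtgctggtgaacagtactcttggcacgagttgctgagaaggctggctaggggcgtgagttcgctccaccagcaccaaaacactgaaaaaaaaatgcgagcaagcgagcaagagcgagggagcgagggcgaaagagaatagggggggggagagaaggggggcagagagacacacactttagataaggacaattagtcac
The Hpse stretch held 66.8% G and C and 16 CpG dinucleotides. In Hpse2 the same length held 9 CpGs, and the medians over all 32851 stretches in the table were 52.4% G and C and 6 CpGs. The GC box lay at bases -54 to -49 before the start in Hpse and at -203 to -198 in Hpse2, and 32.7% of all stretches hold it on either strand. Neither stretch held, on any strand, the E-box CACGTG that MITF, the master regulator of melanocytes, and USF bind (6.02% of all stretches), its MITF variant CATGTG (12.3%), the ETS core CCGGAA (12.0%), the AP-1 site TGANTCA (6.75%) or the CRE core TGACG (17.8%). None of these strings of letters contains another. The table held a stretch for 7 of the 10 enzymes, not for Ext1, Ndst1 and Sulf1. Among the rest, Hs6st1 held 6 GC boxes in 76.4% G and C, Ndst2 held 3, and Hs2st1 held 1 with 1 CRE core. Ext2 held no GC box but 1 CACGTG, and of the 2 stretches listed for Sulf2 1 held a GC box. Such letters describe the DNA and do not show that a factor binds there.

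Values below are levels on the log2 scale: log2 of a probe's processed signal over its array's own 75th percentile, so 0 is a bright probe and a negative level a dimmer one. Differences are log2, K14-SCF Tg minus WT, and levels of different probes cannot be set against each other. On each array 78.4% to 87.2% of the 55681 non-control probes exceeded background clearly by the scanner software's flag, called above background here. The 10 melanocyte marker genes, among them Dct, Tyr, Mlana and Kit, were above background on all 6 arrays, and their summed linear level was 269 to 323 in K14-SCF Tg and 280 to 369 in WT. WT replicate 1 was alone on its slide, and the other 5 arrays shared a second slide, on which both replicate 3 arrays lay in row 2. With 3 arrays a genotype, the number of arrays limits how precise any value can be. The samples are bulk, so fewer cells that hold a transcript and less transcript per cell cannot be told apart.

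Hpse transcript was measured above background in every K14-SCF Tg sample and in no WT sample. Its brighter probe, probe 1, stood at -1.92, -2.37 and -2.23 on the K14-SCF Tg arrays of replicates 1 to 3, against -8.16, -7.92 and -7.77 on the WT arrays. The second probe for the same transcript stood at -2.26, -2.71 and -4.16 in K14-SCF Tg, against -8.33, -6.92 and -7.90 in WT. With either probe the lowest K14-SCF Tg array was far brighter than the highest WT array, and the array of K14-SCF Tg replicate 3 was the dimmest of its genotype with probe 2 only. The levels averaged -2.17 ± 0.23 in K14-SCF Tg and -7.95 ± 0.19 in WT with probe 1 (SD, n = 3 each), a difference of 5.78 with an SE of 0.24. With probe 2 they averaged -3.04 ± 0.99 in K14-SCF Tg and -7.72 ± 0.72 in WT (SD, n = 3 each), a difference of 4.67 with an SE of 0.62. Over the 6 arrays the 2 probes had a Pearson correlation of 0.963, most of which is the gap between the genotypes that both probes share.

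**Figure D1:**
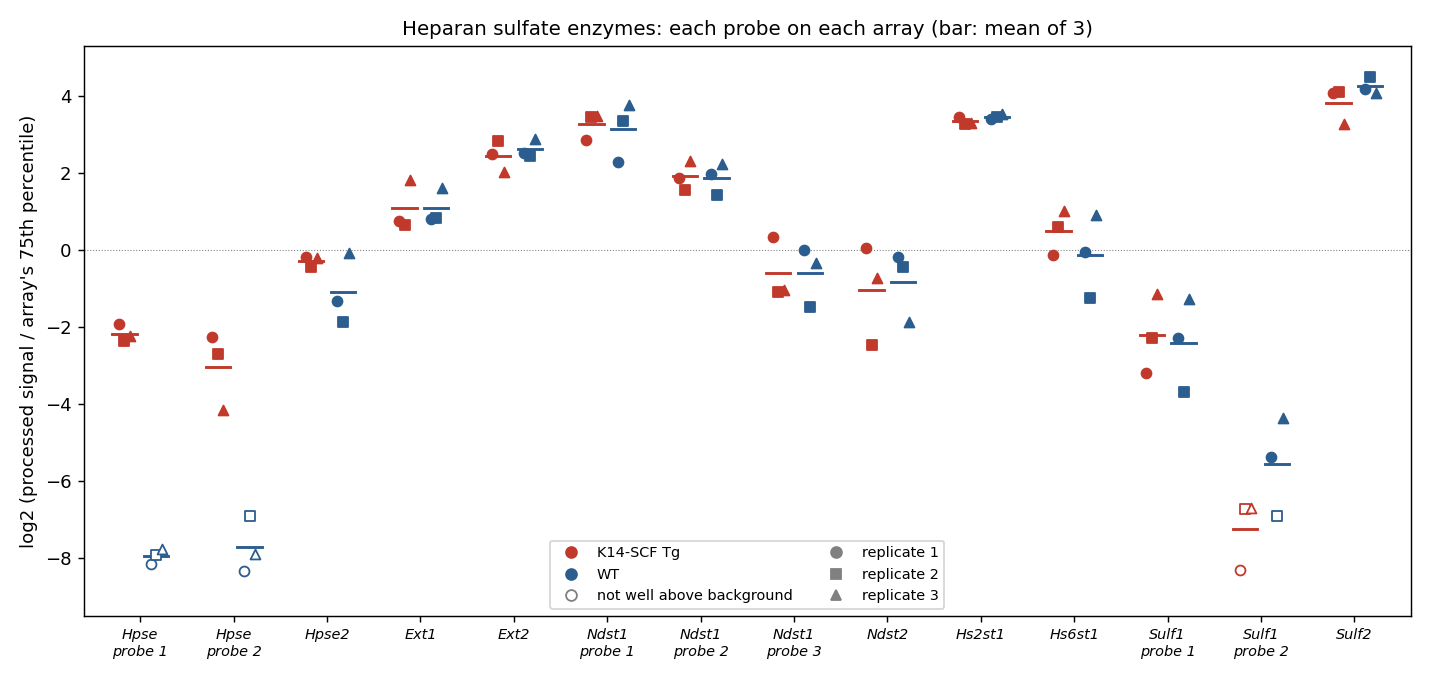
Level of each probe of the 10 enzymes (log2 of processed signal over the array's 75th percentile, vertical axis) on each of the 6 arrays, K14-SCF Tg in red left of WT in blue, with a bar at the mean of 3. Open symbols are not well above background. The 2 Hpse probes lie between -4.16 and -1.92 in K14-SCF Tg and between -8.33 and -6.92 in WT, and the arrays of the other enzymes overlap between the genotypes.

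The probe 1 measurement is what chose Hpse, so its call is part of that choice and not separate evidence. Like probe 2, probe 1 entered the test only through the 3 K14-SCF Tg arrays, being above background on 0 WT arrays. It was the 1 probe of 47730 tested (0.0021%) that was higher in K14-SCF Tg after adjustment over all probes (limma, Benjamini-Hochberg, threshold 0.05), while 0 probes (0%) were lower and 2604 (5.46%) had an unadjusted p under the same threshold in either direction. The pattern of detection, above background on 3 K14-SCF Tg and 0 WT arrays, was met by both Hpse probes and in all by 158 of 55678 probes (0.284%), and the reverse pattern by 27. The second probe did not pass the adjustment. The call of probe 1 depended on the setting, and in 14 of 18 alternative settings 0 probes passed. Among them were the slide as a block, the slide row, the replicate block, another variance model and each array left out in turn. The 14 also hold the filter on signal in all 6 arrays, which leaves probe 1 out, and the mean of a gene's probes, which replaces it. Neither of these could call probe 1.

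Because no WT array measured Hpse, the size of the difference is not settled by these arrays. The processed signal of probe 1 was 429.1, 326.3 and 305.4 intensity units in K14-SCF Tg and 5.5, 6.7 and 6.4 units in WT. Its spots themselves, before any background was taken off, had median pixels of 442, 348 and 341 units in K14-SCF Tg and 85, 65 and 71 in WT, over local backgrounds of 46, 47 and 46 units in K14-SCF Tg and 32, 48 and 46 in WT. All 6 spots were brighter than the glass around them, the 3 K14-SCF Tg spots by the most. Probe 2 had spot medians of 393, 316.5 and 149.5 units in K14-SCF Tg and 74, 77 and 59 in WT. A floor was set on each WT array, at the dimmest probe that was flagged above background or at Hpse's own signal where that was higher. Against it Hpse was 48.1-fold higher in K14-SCF Tg by probe 1 and 20.9-fold by probe 2. These folds are not lower bounds, since dim probes can lie above that floor, and against the 99th percentile of the probes not above background the folds were 12.1 and 6.61. Left without background subtraction, a setting chosen after seeing the data, the log2 difference of probe 1 was 2.32 (SE 0.21) in place of 5.78. It was 2.31 (SE 0.19) with normexp background correction, which here added an offset of 50 units to every spot. Both settings leave extra units on the spots of both genotypes, which narrows a log2 difference. They are thus not separate estimates of its size.

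**Figure D2:**
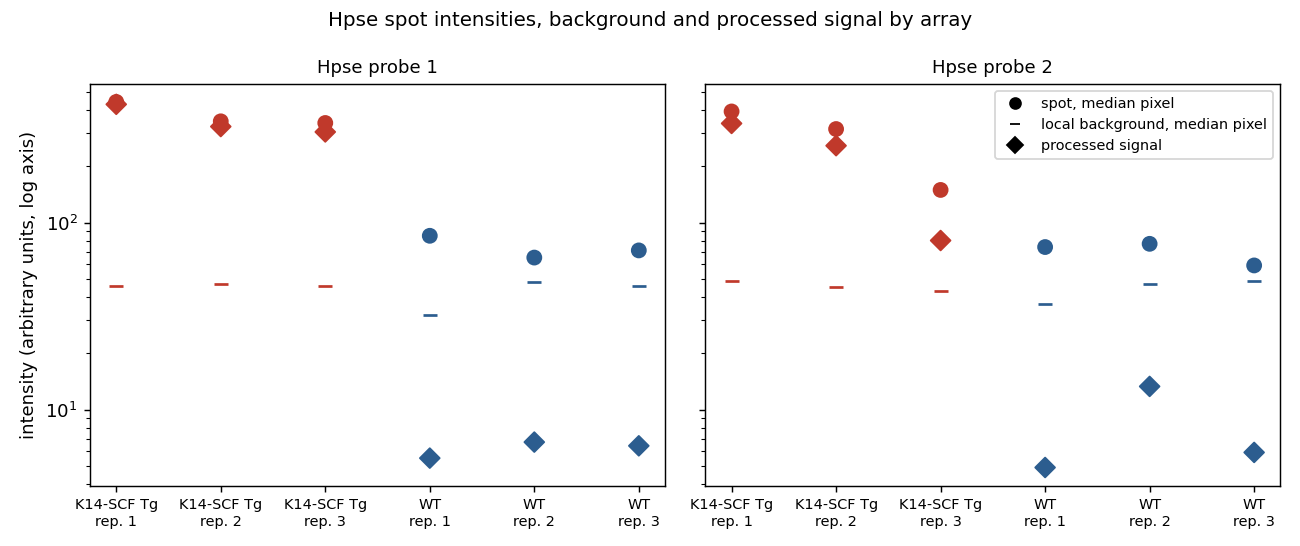
Intensity of the 2 Hpse probes (log axis, arbitrary units) on the 3 K14-SCF Tg arrays in red and the 3 WT arrays in blue: median pixel of the spot, median pixel of its local background, and processed signal after background subtraction. Spots of probe 1 have medians of 341 to 442 units in K14-SCF Tg and 65 to 85 in WT, and the processed signal is 305.4 to 429.1 units in K14-SCF Tg and 5.5 to 6.7 in WT.

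Heparanase is also made by other cells of the skin, among them platelets, mast cells and other leukocytes, keratinocytes, fibroblasts and endothelium, so markers of these were read beside it as summed linear levels. Of 7 mast cell genes on the array, the defining receptor chains Fcer1a and Ms4a2 were above background on none of the 6 arrays. Cma1 and Tpsb2 were above background on all 6, and Mcpt4, Hdc and Cpa3 on some of them. The sum was 0.591 to 0.693 in K14-SCF Tg and 0.325 to 0.658 in WT, of which Tpsb2 made up 50.4% to 88.7%. Cma1 was higher in K14-SCF Tg with no overlap, by 0.40 (SE 0.24), and 3 of the 4 tested differences were positive. The 6 platelet genes, of which Ppbp was above background on no array, summed to 1.11 to 1.36 in K14-SCF Tg and 1.07 to 1.41 in WT. All 10 leukocyte genes were above background on all arrays, with sums of 191 to 204 in K14-SCF Tg and 162 to 212 in WT, of which Itgam alone made up 89.3% to 95%. Without Itgam the other 9 summed to 13.7 to 17.6 in K14-SCF Tg, within the wider range of WT. These sums overlapped between the genotypes, but 2 single leukocyte genes were higher in K14-SCF Tg with no overlap, as Hpse was: Tyrobp, a signalling adaptor of myeloid cells, by 2.35 (SE 1.02), and Cd79a, of the B cell receptor, by 2.13 (SE 0.89). Cd74 differed by -1.61, with overlap. The 10 keratinocyte genes summed to 133 to 144 in K14-SCF Tg and 115 to 146 in WT, of which Trp63 made up 86.1% to 97%, and the other 9 to 3.94 to 12.7 in K14-SCF Tg and 5.17 to 19.2 in WT. Of these, Krt17 was higher in K14-SCF Tg with no overlap, by 2.18 (SE 0.72), and 5 of the 10 differences were positive. The 8 endothelial genes summed to 2.37 to 2.81 in K14-SCF Tg and 2.19 to 5.15 in WT, and the 8 Schwann cell genes to 72.3 to 74.3 in K14-SCF Tg and 53 to 76.1 in WT. The 10 fibroblast genes, by contrast, summed to 8.97 to 22.4 in K14-SCF Tg and 26.2 to 71.5 in WT, with no overlap, and without Col1a2, the brightest, to 3.96 to 11.5 in K14-SCF Tg and 13.1 to 36.6 in WT. Single fibroblast genes were mixed: 8 of 10 differences were negative, 3 of them without overlap (Col1a2, Col3a1 and Thy1), while Pdgfra differed by 1.26 and Fbln1 by 0.36. Beside these counts, 10.5% of all 18385 genes tested were without overlap. No gene of these marker lists passed the test (limma). Each cell type's part in the Hpse values was not tested.

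The 3 nearest tested genes on each side of Hpse on chromosome 5 did not share its pattern of detection. Each was above background on all 6 arrays with its brightest tested probe, and genes without a tested probe were passed over. On the side of lower coordinates, Coq2, for coenzyme Q synthesis, differed by 0.42 (SE 0.46), Plac8 by -0.07 (SE 0.41) and Cops4, a subunit of the COP9 signalosome, by -0.52 (SE 0.31). On the other side, the helicase gene Helq differed by -0.08 (SE 0.78), Mrps18c, of the mitochondrial ribosome, by -0.73 (SE 0.43) and Abraxas1, a partner of BRCA1, by 0.48 (SE 0.55). None of the 6 passed the test, with adjusted p from 0.949 to 1.00 (limma), and with their brightest tested probes all of them overlapped between the genotypes. Another Abraxas1 probe was above background on 0 arrays of either genotype and did not overlap. A further one was above background on 1 K14-SCF Tg and 2 WT arrays and overlapped.

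The genes whose levels ran most like those of Hpse over the 6 arrays were sought among the 3345 tested genes that varied by an SD of at least 1, of which 53 had a Pearson correlation with probe 1 of at least 0.9 and 35 one of -0.9 or less. Such a correlation mostly repeats the gap between the genotypes and is given as a description. Csrp3, a muscle LIM protein gene, came first with 0.981, at -2.23, -2.18 and -1.39 in K14-SCF Tg and -5.33, -4.89 and -5.03 in WT. Polr2f, for a subunit shared by the RNA polymerases, had 0.972, at 0.31, 0.41 and -0.29 in K14-SCF Tg and -2.00, -2.01 and -1.61 in WT. Fcgbp, a mucin-like protein gene, had 0.971, at -2.42, -2.00 and -1.80 in K14-SCF Tg and -4.41, -4.57 and -4.94 in WT. In each of these the 3 K14-SCF Tg arrays stood above the 3 WT arrays, and unlike Hpse each was above background on every array. Gm5640 followed with 0.965 and a difference of 2.58 (SE 0.33), and was above background on 1 of 3 WT arrays. The non-coding transcript 4931408D14Rik had 0.964 and a difference of 2.15 (SE 0.31). None of the 5 passed the test in its own right, with adjusted p from 0.341 to 0.416 (limma).

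Hpse2 encodes a heparanase relative that lacks the cleaving activity and binds heparan sulfate. It stood at -0.18, -0.45 and -0.22 in K14-SCF Tg and at -1.33, -1.88 and -0.08 in WT. The K14-SCF Tg arrays lay close together and the WT arrays were spread, with WT replicate 3 above all of the K14-SCF Tg arrays. The levels averaged -0.28 ± 0.14 in K14-SCF Tg and -1.10 ± 0.92 in WT (SD, n = 3 each), a difference of 0.81 (SE 0.48, 95% interval -0.38 to 2.00) that did not pass the test (limma, adjusted p = 0.950). The difference was 1.32 without WT replicate 3 and 0.42 without WT replicate 2, and in neither case did it pass (limma, adjusted p = 0.591 and 0.925, the first being the lowest over all alternatives). Unlike Hpse, it was above background on all 6 arrays.

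Ext1 and Ext2 form the polymerase that extends the chain. Ext1 stood at 0.76, 0.66 and 1.82 in K14-SCF Tg and at 0.81, 0.84 and 1.62 in WT. The genotypes covered the same range, with the replicate 3 array the highest of each, and the difference was -0.01 (SE 0.42, interval -1.05 to 1.03; limma, adjusted p = 1.00). Ext2 stood at 2.50, 2.82 and 2.03 in K14-SCF Tg and at 2.52, 2.44 and 2.89 in WT, a difference of -0.17 (SE 0.30, interval -0.89 to 0.56; adjusted p = 0.995). For Ext2 it was K14-SCF Tg replicate 3 that was lowest and WT replicate 3 that was highest, with the rest of the arrays between them.

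Ndst1 and Ndst2 encode the enzymes that begin sulfation, Ndst1 acting widely and Ndst2 being known for heparin synthesis in mast cells. The brightest of 3 Ndst1 probes stood at 2.86, 3.46 and 3.48 in K14-SCF Tg and at 2.29, 3.35 and 3.76 in WT, a difference of 0.13 (SE 0.44, interval -0.95 to 1.22; limma, adjusted p = 1.00). The other 2 probes gave 0.04 (SE 0.33) and -0.00 (SE 0.57), and for each of the 3 probes the genotypes overlapped. With the brightest probe, WT replicate 1, the array alone on its slide, was the lowest of the 6, and within the shared slide the difference was -0.29 (SE 0.33). With each of the other 2 probes WT replicate 2 was the lowest. Ndst2 stood at 0.05, -2.46 and -0.73 in K14-SCF Tg and at -0.18, -0.43 and -1.87 in WT. Its arrays were scattered within each genotype, and the difference of -0.22 had an interval of -2.12 to 1.68 (SE 0.77; adjusted p = 1.00).

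Hs2st1 encodes the 2-O-sulfotransferase and Hs6st1 a 6-O-sulfotransferase. Hs2st1 stood at 3.46, 3.26 and 3.31 in K14-SCF Tg and at 3.41, 3.45 and 3.52 in WT. These arrays nearly coincided: its pooled SD within a genotype was 0.08, where the median tested gene had 0.49 and 1.1% of genes had a smaller one. The difference was -0.11 (SE 0.20, interval -0.61 to 0.39; limma, adjusted p = 0.996). Hs6st1 stood at -0.13, 0.61 and 1.01 in K14-SCF Tg and at -0.05, -1.24 and 0.92 in WT, a difference of 0.62 (SE 0.61, interval -0.89 to 2.13; adjusted p = 0.988). That value hung on single arrays, being 0.06 without WT replicate 2 and 1.14 without WT replicate 3.

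Sulf1 and Sulf2 encode the sulfatases that edit the finished chain at the cell surface. The brighter Sulf1 probe stood at -3.20, -2.28 and -1.13 in K14-SCF Tg and at -2.28, -3.69 and -1.26 in WT, a difference of 0.21 (SE 0.78, interval -1.72 to 2.13; limma, adjusted p = 1.00). The second Sulf1 probe, designed on another transcript record, was above background on 0 K14-SCF Tg arrays and on 2 WT arrays, replicates 1 and 3, and was too dim to be tested. Its levels were -8.30, -6.73 and -6.69 in K14-SCF Tg and -5.38, -6.90 and -4.37 in WT, a pattern that the brighter probe did not show. Sulf2 stood at 4.07, 4.10 and 3.26 in K14-SCF Tg and at 4.19, 4.50 and 4.08 in WT. K14-SCF Tg replicate 3 lay below the rest, the other 5 arrays lay within a narrow band, and the difference was -0.44 (SE 0.32, interval -1.22 to 0.33; adjusted p = 0.972).

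**Figure D3:**
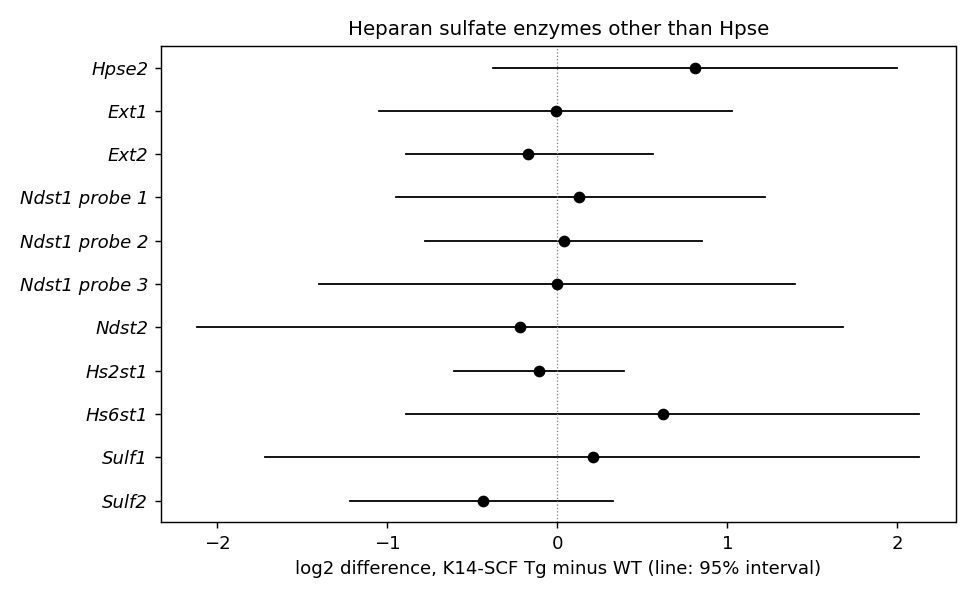
Log2 difference, K14-SCF Tg minus WT (horizontal axis), with its 95% interval for each tested probe of the 9 enzymes other than Hpse. Every interval crosses 0, the narrowest being that of Hs2st1 (-0.61 to 0.39) and the widest that of Sulf1 (-1.72 to 2.13).

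Of the 9 enzymes other than Hpse, 0 passed the test in either direction (limma, adjusted p from 0.950 upward), 0 had an unadjusted p under 0.05, and 0 were without overlap between the genotypes. Over all 18385 genes tested, 5.41% had such an unadjusted p and 10.5% were without overlap. The differences of the 9 were positive in 4 and negative in 5, from -0.44 to 0.81 with a median of -0.01, which is also the median over all genes. A p that misses the threshold does not show equal levels: apart from Ext2 and Hs2st1, the interval of each enzyme's representative probe still held a change of 1 on the log2 scale on one side or the other. What several of the enzymes had in common was the replicate 3 arrays, which were the highest of their genotype in both genotypes for Ext1, Ndst1, Hs6st1 and Sulf1, 4 of the 9, against 17.6% of all genes. With the dimmest Ndst1 probe, replicate 3 was the highest in neither genotype, and this count was not tested. Both replicate 3 arrays lay in row 2 of the slide and carry the same number. They also had the lowest of the 75th percentiles that scale the levels, 1434.4 units in K14-SCF Tg and 1410.7 in WT. The other arrays had 1572.3 to 1686.5 units. Which of these goes with the levels cannot be told apart.

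The rest of the pathway was read from 7 lists of genes that hold 74 genes, of which 67 could be tested. In none of the lists did a gene pass the test in either direction, 3 of the 67 genes had an unadjusted p under 0.05, 11 were without overlap (against 5.41% and 10.5% over all genes), and 33 differences were positive and 34 negative with a median of -0.01. Of all genes tested, 51.4% had negative differences. In the linker list, for the first sugars of the chain and other chain synthesis, 8 of 9 differences were positive with a median of 0.15. The list held Xylt1, Xylt2, Pxylp1, Extl2 and Extl3 at 0.13 to 0.18, each less than its SE. Its genes with the smallest p were B3gat3, for the glucuronosyltransferase that completes the linker, at 1.12 (SE 0.63), the linker galactosyltransferase gene B4galt7 at 0.88 (SE 0.55), the xylose kinase gene Fam20b at -0.42 (SE 0.57) and Extl1 at 0.69 (SE 1.00). The smallest adjusted p of the list was 0.946 (limma), and no gene of it was without overlap.

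Among 9 tested genes for other modifications of the chain, 4 were without overlap, where 10.5% of all genes were, and none had an unadjusted p under 0.05. Glce, the epimerase that turns glucuronic into iduronic acid, stood at 1.00, 1.59 and 2.06 in K14-SCF Tg and at 2.30, 2.06 and 2.30 in WT, a difference of -0.67 (SE 0.33; limma, adjusted p = 0.934). The 3-O-sulfotransferase gene Hs3st2 differed by -0.47 (SE 0.24) with its brighter probe and by -0.12 (SE 0.33) with its other, and Hs3st4 by -0.37 (SE 0.24). The other Hs3st4 probe, above background on 1 array of each genotype, was too dim to be tested and overlapped. The fourth gene without overlap, Hs3st6, lay in the other direction, at 0.45 (SE 0.31), and is named after its value was seen. Hs3st3a1, at 2.77 (SE 1.59), was above background on 2 K14-SCF Tg arrays and 1 WT array only, and its genotypes overlapped. In the supply of precursors, 1 of 7 genes had an unadjusted p under 0.05 and 2 were without overlap, against 5.41% and 10.5% of all genes. This was Slc35b3, which carries the sulfate donor PAPS into the Golgi, at -0.44, -0.48 and -0.55 in K14-SCF Tg and -0.86, -1.05 and -1.22 in WT, a difference of 0.55 (SE 0.22; adjusted p = 0.895). Ugp2, for UDP-glucose synthesis, differed by -0.38 (SE 0.22) without overlap, and by -0.27 (SE 0.32) with overlap on its other probe. The nucleotide sugar carrier gene Slc35d2 differed by 1.17 (SE 0.80) and the PAPS synthase gene Papss1 by -0.40 (SE 0.45), both with overlap.

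The core proteins that carry the chain were all measured, 14 of 14, with 5 positive and 9 negative differences and a median of -0.08. Srgn, for serglycin, the proteoglycan of blood cell granules, had the smallest p of the 67 genes. It stood at -7.19, -6.59 and -5.40 in K14-SCF Tg, where 1 of 3 arrays was above background, and at -3.92, -2.97 and -2.32 in WT, where 3 of 3 were. The difference was -3.32 (SE 0.61), the genotypes did not overlap, and it did not pass the adjustment over all probes (limma, unadjusted p = 0.00167, adjusted p = 0.514). As with Hpse, its size followed the background handling, at -1.72 with normexp and the same offset of 50 units. The mast cell and leukocyte marker sums given above overlapped between the genotypes, and the fibroblast sums were lower in K14-SCF Tg. The mast cell gene Cma1 and the leukocyte genes Tyrobp and Cd79a were higher in K14-SCF Tg without overlap. The part of these cells in the Srgn values was not tested. Col18a1, for the basement membrane collagen XVIII, differed by 1.33 (SE 0.53; unadjusted p = 0.0479, adjusted p = 0.914) with no overlap, and by 0.80 (SE 0.43) with overlap on its other probe. Hspg2, for perlecan, differed by -0.75 (SE 0.33) with no overlap and by 0.14 (SE 0.63) on its other probe, and the glypican gene Gpc3 by -0.41 (SE 0.31).

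Breakdown of the chain in the lysosome showed 4 positive and 5 negative differences among 9 genes, from -0.40 to 0.45 with each gene's brightest tested probe. All overlapped between the genotypes. The sulfatase gene Sgsh differed by -0.01 (SE 0.20) with that probe and by 2.16 (SE 1.81), also with overlap, on its other probe. Gusb, for beta-glucuronidase, differed by -0.40 (SE 0.31), the sulfatase gene Ids by -0.18 (SE 0.47), and Naglu by 0.45 (SE 0.53). The 3 genes through which heparanase protein is processed and taken up also overlapped. Ctsl, for cathepsin L, the protease that activates heparanase, stood at 2.85, 2.63 and 2.87 in K14-SCF Tg and at 2.72, 2.61 and 2.94 in WT, a difference of 0.03 (SE 0.22, interval -0.52 to 0.57). The uptake receptor genes Lrp1 and Igf2r differed by -0.28 (SE 0.28) and -0.37 (SE 0.29).

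Of 16 tested heparin-binding growth factors and receptors, 0 passed and 0 had an unadjusted p under 0.05. The receptor gene Fgfr4 alone was without overlap, at -0.86 (SE 0.65), where 10.5% of all genes were. It stood at -3.24, -3.27 and -3.22 in K14-SCF Tg and at -3.11, -3.17 and -0.89 in WT, so the difference rested on WT replicate 3. The other Fgfr4 probe gave -0.35 (SE 0.30) with overlap. Mdk, for midkine, a heparin-binding growth factor, had the smallest p of the list. It stood at 3.15, 2.85 and 3.39 in K14-SCF Tg and at 2.08, 1.54 and 2.88 in WT, a difference of 0.97 (SE 0.40; limma, unadjusted p = 0.0514, adjusted p = 0.917), and its other probe gave 1.12 (SE 0.36; unadjusted p = 0.0225, adjusted p = 0.839) with no overlap. Fgf1 differed by -0.89 (SE 0.47) and the chemokine gene Cxcl12 by -1.48 (SE 0.83), both with overlap.

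**Figure D4:**
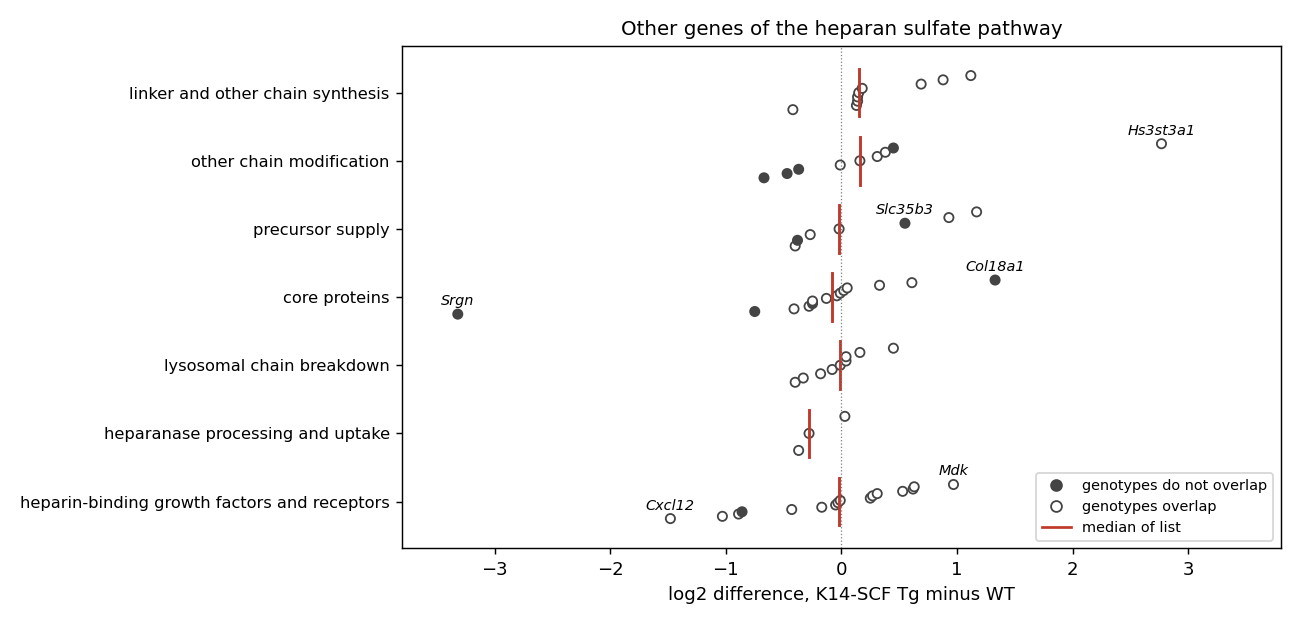
Log2 difference, K14-SCF Tg minus WT (horizontal axis), of each tested gene in the 7 lists of the heparan sulfate pathway, with the median of each list as a red line. Filled points are genes whose genotypes do not overlap. The 67 genes scatter around 0 with a median of -0.01, Srgn lies lowest at -3.32 and Hs3st3a1 highest at 2.77, and none passed the test.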

How the data were processed

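Amplified, Cy3-labelled RNA of sorted cells was hybridised to 1-colour Agilent mouse arrays and read with Agilent Feature Extraction 10.7.1.1, per the submitters' processing notes. Per the file headers, the intensity used here is the processed signal, background-subtracted and detrended within each array and not normalized between arrays; the median pixels of spot and local background are intensities as deposited, and the probe design refers to mm9. The authors also deposited a value table in a linear ratio: each column equals the processed signal over 1 constant per array (1404.6 to 1678, 99.5% to 99.6% of the 75th percentile used here), so its scale and direction are known and genes are not centred. Its column medians were 0.184, 0.188 and 0.176 in K14-SCF Tg and 0.17, 0.177 and 0.169 in WT. The authors' definition of that constant is not given in these sources.

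The processed signal was divided by its 75th percentile across the 55681 non-control probes of the array and put on the log2 scale, outlier spots left out and spots of a probe averaged. A probe was tested if 3 or more of the 6 arrays flagged it well above background, which 47730 were, with 3 left out as outliers. Names came from the RefSeq gene table of GRCm38.p6, in which 28331 of the 29786 probes with a RefSeq accession matched. A gene was represented by its brightest tested probe. limma 3.58.1 in R 4.3.3 (lmFit, eBayes, no covariates, 2-sided) compared the genotypes. The p-values were adjusted by Benjamini-Hochberg over every tested probe at a threshold of 0.05, and the steps were tested on simulated data. In each pathway list the text names up to 4 genes of smallest p, and in addition 5 genes most like Hpse and 3 neighbours on each side. One gene that this rule names is not reported here. Slc35b2 was not found by name on the array, and B3galt6, Ndst3, Hs6st2, Hs3st5, Fgf10 and Hgf were too dim to test. Alternatives covered normalization, background correction, filters, slide, slide row, replicate block, variance model, probe summary and each array left out. The enzymes and all lists were chosen with earlier results of these data known.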

Additional observations from a re-analysis of the deposited data

How the results depend on the processing

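Hpse was higher in K14-SCF Tg under every alternative that gave it a value, from 2.31 to 5.87 on the log2 scale. It was 2.31 with normexp on median signals (offset 50 units) and 2.32 on spot medians without background subtraction (chosen after seeing the data). The mean of its tested probes gave 5.23, and leaving out 1 array gave 5.65 to 5.87. The second probe gave 1.97 with normexp and 1.90 without background subtraction. Requiring signal on all 6 arrays removes Hpse, so it has no value there. The number of enzymes other than Hpse that passed, and of pathway genes that passed, was 0 under all 18 alternatives by limma, and at an unadjusted p under 0.05 the enzymes numbered 0 except for 1, Hpse2, without WT replicate 3. Several enzymes with differences near 0 changed sign: Ext1 was 0.04 with quantile normalization and ran from -0.38 to 0.26 with 1 array left out, Ext2 from -0.35 to 0.05 and Sulf1 from -0.43 to 0.78. Ndst1 was -0.29 and Ndst2 0.10 with slide as a block, and with 1 array left out they ran from -0.29 to 0.45 and from -0.77 to 0.49. Hs2st1, also near 0, kept its sign under all 18 alternatives, from -0.2 to -0.05. Slide as a block leaves out what WT replicate 1 adds, so it equals the fit without that array; the cause of the changes of sign was not tested. With the replicate block, Hpse differed by 5.78 (SE 0.27), and 0 enzymes and 0 pathway genes passed; the block changed none of these counts. The numbers were not taken to pair the samples, because same-numbered arrays correlated at 0.02, 0.05 and 0.13 after the genotype means were taken off, and not every array correlated best with its own number. Over all probes 1 passed in the reported fit, with quantile normalization, median centring, the deposited table and no filter, and 0 under the other settings.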
